A study of Mus musculus with 12 samples.

Results

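Cholesterol is made from acetyl-CoA in a chain of enzymes whose genes share a regulator, the transcription factor SREBP2. SREBP2 is made as a membrane protein of the endoplasmic reticulum, where INSIG proteins hold it while sterols are abundant, and it is released to the nucleus when sterols run low, so that the enzymes of the pathway rise and fall together. The intestinal epithelium takes up dietary cholesterol and also makes its own, and its dividing cells need sterols for new membranes. The 8 genes described here were chosen by name as representatives of this system: Srebf2 (which encodes SREBP2), its brake Insig1, and the enzymes Hmgcs1, Idi1, Fdft1, Sqle, Lss and Dhcr7, in the order in which they act. All 8 were found among the 14244 genes of the deposited table and all 8 were among the 12808 genes tested.

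Gut epithelial cells were compared between 5 wild-type (WT) mice and 7 Chd8L+/- mice, male C57BL/6 littermates aged 8 weeks, with 1 library of poly(A) RNA per mouse. Chd8L+/- mice carry, in every tissue, a constitutive deletion of part of the coding exons of the long isoform of Chd8, a chromatin remodeller, on 1 allele, so the deletion is not limited to the epithelium. The cells were stripped from pieces of intestine as a whole and not sorted by type, and the segment of gut is not given in the sources used here. Values are normalised counts, which are reads per gene divided by a size factor of the library, and p-values measure the spread between mice.

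Chd8 itself had normalised counts of 1002, 1050, 934, 955 and 823 in WT replicates 1 to 5 and of 1084 to 1482 (median 1281) in the libraries labelled Chd8L+/-. The gene was therefore higher, not lower, in every library labelled Chd8L+/- than in every WT library (log2 fold change 0.44, SE 0.10, limma with Benjamini-Hochberg adjustment, adjusted p = 0.121, and 0.48 with adjusted p = 0.00676 without WT replicate 2). A count over the whole gene does not resolve the deleted exons, so it is no check of the labels, and the genotype names below are those labels. WT replicate 2 stood apart from the other WT libraries: on the principal component that held 39.7% of the variance it lay at 41.0, among the libraries labelled Chd8L+/- (0.26 to 42.7), while the other WT libraries lay between -67.5 and -26.2. Values without it are therefore also given where they move. It was picked from these same values for lying near the other genotype, so leaving it out tends to widen differences between genotypes and favours calls. The p-values without it are thus no separate test. All 12 enterocyte markers were tested and their summed level was 422231 to 919096 in WT and 356422 to 796239 in Chd8L+/- libraries. The stromal and endothelial markers summed to 55.1 to 425 and 83.8 to 2073, with Pdgfra, Lum, Col1a2 and Col3a1 at 0 in at least 1 library. Immune markers were higher, at 4953 to 9097 and 3459 to 9369 for T and B lymphocytes and 1157 to 3249 and 1782 to 4104 for myeloid cells.

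SREBP2 acts at promoters through the sterol regulatory element, usually beside boxes for the general factor NF-Y and GC boxes for Sp1. RefSeq promoter sequence (GRCm38.p6) was at hand for 6 of the 8 genes, that is all but Fdft1 and Sqle, and its 250 bases before the start were searched on both strands for TCACNCCAC (a sterol regulatory element), CCAAT (the NF-Y box, ATTGG when read on the other strand) and GGGCGG (the GC box). The stretches below show where these letters stand in the promoters of Srebf2, Insig1, Hmgcs1 and Lss. The NF-Y boxes found for Idi1 and Dhcr7 lay after the first annotated start of the gene, so no stretch is shown for them. They are written 5′ to 3′ on the plus strand, which is the strand of all 4 genes, and capitals mark the NF-Y boxes and, in Hmgcs1, the sterol regulatory element. The Hmgcs1 stretch (chr13:119690101-119690340) runs from 250 to 11 bases before the start, the Srebf2 stretch is chr15:82147104-82147168, the Insig1 stretch is chr5:28071166-28071230 and the Lss stretch is chr10:76531513-76531577.
Hmgcs1: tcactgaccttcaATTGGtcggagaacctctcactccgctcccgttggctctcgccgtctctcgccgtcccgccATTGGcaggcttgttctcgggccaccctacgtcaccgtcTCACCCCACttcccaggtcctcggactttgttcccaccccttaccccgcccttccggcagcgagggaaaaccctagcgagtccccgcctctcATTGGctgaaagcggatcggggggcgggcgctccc
Srebf2: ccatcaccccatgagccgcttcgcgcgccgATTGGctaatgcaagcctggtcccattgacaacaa
Insig1: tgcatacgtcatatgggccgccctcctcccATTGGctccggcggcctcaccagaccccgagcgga
Lss: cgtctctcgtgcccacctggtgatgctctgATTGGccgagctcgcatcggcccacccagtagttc

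Hmgcs1 was the only gene of the 6 with a match to TCACNCCAC, starting 137 bases before its start, between NF-Y boxes at 176 and 45 bases. Those exact letters occurred in 1.22% of the 27025 genes with a promoter sequence, and in 0 of the 12 other cholesterol synthesis enzymes that had one. The NF-Y box was present in 6 of the 6 genes and in 11 of the 12 other enzymes, against 37.5% of all genes. A gene with several annotated starts has several windows, and Dhcr7 held the box in 1 of its 3, so that by window it was present in 6 of 8, against 33.8% of all windows. The GC box was present in 6 of the 6 and in 11 of the 12, against 35.4% of all genes. In the further lists of related genes described below, the NF-Y box was present in 44.4% (non-sterol isoprenoid branch) to 77.8% (other SREBP2 targets) of genes. The GC box was present in 50% (fatty acid genes and LXR targets) to 77.8% (SREBP activation) of them. All of these are exact matches of letters in a short window. They say nothing of variant elements inside the window, of sites elsewhere or of binding.

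None of the 8 genes was called between genotypes. With limma and Benjamini-Hochberg adjustment over all genes, 0 of the 8 passed an adjusted p of 0.05, where 0.0234% of all genes tested did (3 of 12808), and 0 of the 8 had groups that did not overlap, where 0.515% of all genes did. At an unadjusted p of 0.05, only Lss passed, 1 of 8, where 24.3% of all genes did. On the recovered reads, edgeR and DESeq2 also called 0 of the 8. The median log2 fold change of the 8 was -0.066, with 3 above 0 and 5 below, beside a median of 0.014 over all genes tested. The limits of the 95% intervals lay between -0.78 and 0.72 on the log2 scale over the 8 genes, so changes of that size were not excluded for every gene. In bulk samples such as these, fewer cells of a type and less RNA per cell cannot be told apart.

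Srebf2, which encodes SREBP2, lies on chromosome 15 (82147181 to 82205379, plus strand, GRCm38). Its normalised counts were 2276, 2179, 2847, 3916 and 2515 in WT replicates 1 to 5. The Chd8L+/- libraries ran from 2029 (replicate 7) through a median of 2607 to 3539 (replicate 5). The groups overlapped almost completely, and the highest and the second highest library, WT replicate 4 and Chd8L+/- replicate 5, came from different genotypes. The means were 2747 ± 703 (SD, n = 5) and 2734 ± 525.9 (SD, n = 7), with a log2 fold change of 0.0043 (SE 0.17, 95% interval -0.36 to 0.37, limma adjusted p = 0.990). Genotype accounted for 0.0057% of the variance of Srebf2 on the log2 scale, where the median over all genes tested was 14.8%.

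Insig1 encodes the protein that retains SREBP2 in the endoplasmic reticulum and is itself a target of SREBP2 (chromosome 5, 28071363 to 28078662, plus strand). WT replicates 1 to 5 had 1020, 1003, 2872, 2603 and 2451. Chd8L+/- libraries had 1032 (replicate 3) to 2734 (replicate 6), with a median of 1684. The WT values fell apart into replicates 1 and 2, as low as the lowest Chd8L+/- library, and replicates 3 to 5, close to the highest. The log2 fold change was -0.13 (SE 0.30, interval -0.77 to 0.51, limma adjusted p = 0.813) between means of 1990 ± 906 (SD, n = 5) and 1705 ± 523 (SD, n = 7), and it was -0.34 without WT replicate 2, still below the threshold for a call.

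Hmgcs1, the cytosolic synthase that makes HMG-CoA at the entry to the pathway, had the highest level of the 8 per kilobase of exon (chromosome 13, 119690379 to 119708260, plus strand). Its normalised counts were 2868, 3048, 6325, 7851 and 5754 in WT replicates 1 to 5. In Chd8L+/- libraries they ran from 3301 (replicate 7) through a median of 4131 to 6026 (replicate 5). All 7 Chd8L+/- libraries lay inside the range of the WT libraries, above WT replicates 1 and 2 and, for 6 of 7, at or below WT replicate 5. The means were 5169 ± 2160 (SD, n = 5) and 4569 ± 1104 (SD, n = 7), with a log2 fold change of -0.10 (SE 0.26, interval -0.66 to 0.46, limma adjusted p = 0.834) and of -0.26 without WT replicate 2.

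Idi1, the isomerase that turns isopentenyl diphosphate into the primer of isoprenoid chains (chromosome 13, 8885501 to 8892451, plus strand), had 904, 1443, 1759, 1897 and 2523 in WT replicates 1 to 5. Chd8L+/- libraries had 1282 (replicate 2) to 2048 (replicate 6), with a median of 1473. The lowest and the highest library were both WT, replicates 1 and 5, and the Chd8L+/- libraries lay within them. The log2 fold change was -0.067 (SE 0.21, interval -0.51 to 0.37, limma adjusted p = 0.865) between means of 1705 ± 596 (SD, n = 5) and 1557 ± 251 (SD, n = 7).

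Fdft1, squalene synthase, takes the step that commits carbon to sterols (chromosome 14, 63145150 to 63179578, minus strand). WT replicates 1 to 5 had 563, 660, 1351, 1689 and 1263, and Chd8L+/- libraries had 669 (replicate 7) to 1475 (replicate 5) with a median of 983. Again WT replicates 1 and 2 were below every Chd8L+/- library and WT replicate 4 was above all of them. The means were 1105 ± 479 (SD, n = 5) and 984 ± 294 (SD, n = 7), with a log2 fold change of -0.097 (SE 0.28, interval -0.70 to 0.51, limma adjusted p = 0.857) and of -0.25 without WT replicate 2.

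Sqle, squalene epoxidase, is a rate-limiting enzyme of the sterol part of the pathway (chromosome 15, 59315077 to 59331192, plus strand). It had 845, 1019, 2314, 3111 and 2336 in WT replicates 1 to 5, and in Chd8L+/- libraries it ran from 934 (replicate 7) through a median of 1707 to 2664 (replicate 5). Sqle spanned the widest range of the 8, 3.68-fold over the 12 libraries, and both ends of that range were WT. The log2 fold change was -0.066 (SE 0.33, interval -0.78 to 0.64, limma adjusted p = 0.920) between means of 1925 ± 964 (SD, n = 5) and 1716 ± 581 (SD, n = 7), and -0.25 without WT replicate 2.

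Lss, lanosterol synthase, closes the ring system of the sterols and was the gene of the 8 with the largest difference (chromosome 10, 76531588 to 76557138, plus strand). Its normalised counts were 228, 375, 351, 416 and 321 in WT replicates 1 to 5. The libraries labelled Chd8L+/- had 308 (replicate 7), a median of 454 and a highest value of 481 (replicate 1). Among them, 5 of 7 lay above every WT library, and replicates 3 and 7 lay within the WT range. The means were 338 ± 70.5 (SD, n = 5) and 437 ± 62.4 (SD, n = 7), with a log2 fold change of 0.38 (SE 0.16, interval 0.04 to 0.72). The unadjusted p of limma was 0.0313, and the adjusted p was 0.170, or between 0.0762 and 0.350 over the 22 other settings that were run, so Lss was not called in any of them. Its log2 fold change kept its sign throughout, at 0.25 to 0.47. The mean log2 value of Lss was also higher for Chd8L+/- within each of the 4 numbers of the library names that held both genotypes. Each genotype had only 1 or 2 libraries per number. Within number 22, Chd8L+/- replicate 7 (308) lay below WT replicate 5 (321). Genotype accounted for 36.1% of the variance of Lss.

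Dhcr7, the reductase of the final step of the Kandutsch-Russell branch, varied least (chromosome 7, 143823145 to 143848410, plus strand). WT replicates 1 to 5 had 594, 693, 642, 717 and 769, and Chd8L+/- libraries had 577 (replicate 7) to 973 (replicate 6) with a median of 740. The ranges overlapped, and only Chd8L+/- replicates 5 and 6 exceeded the highest WT library. The log2 fold change was 0.13 (SE 0.13, interval -0.15 to 0.40, limma adjusted p = 0.561) between means of 683 ± 67.5 (SD, n = 5) and 752 ± 128 (SD, n = 7).

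**Figure D1:**
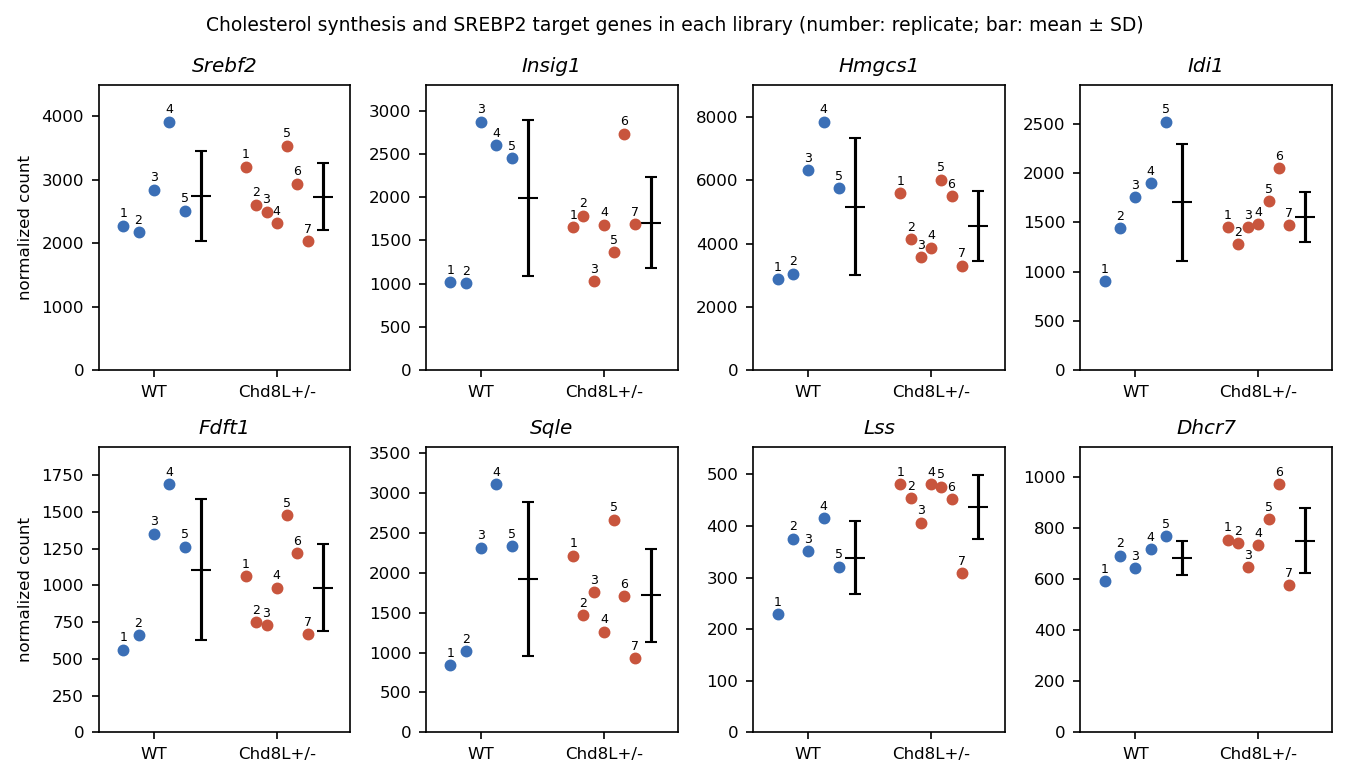
Normalised counts (y axis, from 0) of the 8 genes in each of the 12 libraries, with WT in blue, Chd8L+/- in red, the replicate number beside each point and bars for the mean ± SD. WT replicates 1 and 2 sit low and WT replicates 3 to 5 high for Insig1, Hmgcs1, Fdft1 and Sqle, with the Chd8L+/- libraries spread between them.

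Levels can be set between genes only per length of transcript. Divided by the length of all annotated exons, the WT means on the scale of normalised counts per kilobase were 1125 ± 470 for Hmgcs1, 643 ± 293 for Insig1, 487 ± 170 for Idi1, 382 ± 97.8 for Srebf2, 347 ± 174 for Sqle, 261 ± 113 for Fdft1, 117 ± 11.6 for Dhcr7 and 31.4 ± 6.53 for Lss (SD, n = 5). The Chd8L+/- means followed the same order, from 995 ± 240 for Hmgcs1 to 40.5 ± 5.78 for Lss (SD, n = 7). Neighbours among Insig1, Idi1, Srebf2, Sqle and Fdft1 lay within an SD of each other in WT, whereas Dhcr7 and Lss stood below the rest. The exon length of Lss was 10787 bases with all annotated transcripts joined, the longest of the 8, which lowers its level on this scale if the cells use shorter transcripts.

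The 8 genes varied among the mice of both genotypes, and they varied together. From the lowest to the highest of the 12 libraries, Sqle spanned 3.68-fold, Fdft1 3.0-fold, Insig1 2.86-fold, Idi1 2.79-fold, Hmgcs1 2.74-fold, Lss 2.11-fold, Srebf2 1.93-fold and Dhcr7 1.69-fold. Within genotypes, the SD of Sqle on the log2 scale stood at percentile 83.3 of all genes tested, those of Insig1, Fdft1 and Hmgcs1 at 78.6, 75.6 and 70.5, and that of Dhcr7 at 18.1. In 7 of 8 genes the SD of the log2 values was larger among WT than among Chd8L+/- libraries, the exception being Dhcr7. For Sqle it was 0.83 against 0.50 and for Idi1 0.55 against 0.22. The WT spread includes replicate 2, and the difference in spread was not tested.

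The same libraries were low or high for most of the 8. WT replicates 1 and 2 were above the 12-library median for 0 of 8 genes, and Chd8L+/- replicates 3 and 7 for 1 of 8 each. At the other end, WT replicate 4 and Chd8L+/- replicates 5 and 6 were above it for 7 of 8 each. Averaged over the 8 genes, each scaled to mean 0 and SD 1, the level ran from -1.55 in WT replicate 1, -0.94 in Chd8L+/- replicate 7 and -0.82 in WT replicate 2 up to 0.84 in Chd8L+/- replicate 6 and 1.08 in WT replicate 4. Both ends of this order therefore held both genotypes, and the lowest library, WT replicate 1, was also the deepest, with 20761315 reads.

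**Figure D2:**
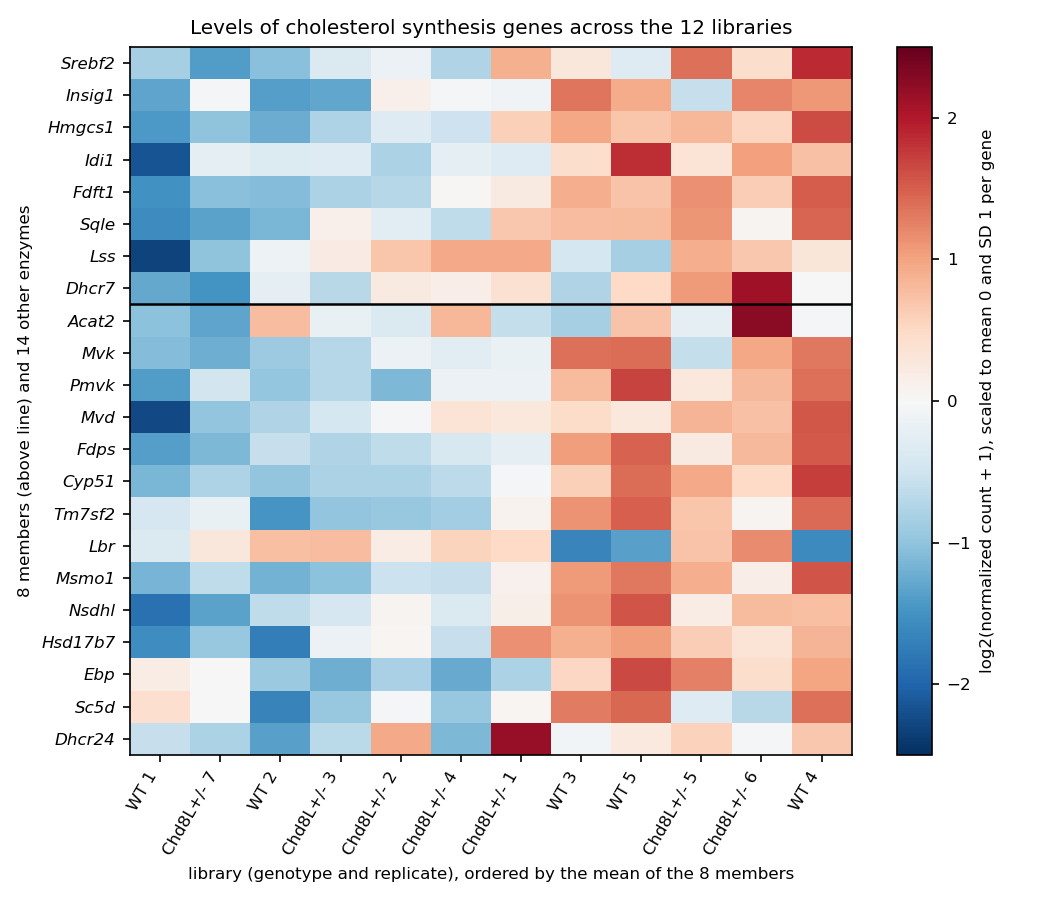
Level of the 8 genes (above the line) and of 14 other cholesterol synthesis enzymes (below it) in each library, as log2(normalised count + 1) scaled to mean 0 and SD 1 per gene, with libraries ordered from the lowest mean of the 8 genes (WT 1, -1.55) to the highest (WT 4, 1.08). Most enzymes turn from blue to red along the same order in both genotypes, whereas Lbr is lowest in WT 3, 4 and 5.

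Over the 12 libraries the 28 pairs among the 8 genes had Pearson r between 0.206 and 0.966 with a median of 0.574, and r was above 0 in 28 of 28. The median over all 82016028 pairs of genes tested was -0.005, and r reached 0.8 in 2.58% of those pairs and in 6 of the 28. The tightest pair was Hmgcs1 and Fdft1 (r = 0.966, rho = 0.979, two-sided permutation test with 100000 resamples, p adjusted over 28 pairs = 0.00028 for r and for rho, from the smallest p that the resamples can give), and the 6 pairs with r of 0.8 or more were those among Hmgcs1, Fdft1, Sqle and Srebf2. In all, 13 of the 28 pairs passed an adjusted p of 0.05 for r. The weakest were those of Insig1 and of Idi1 with Lss, at r = 0.206 (rho = 0.021, permutation test, adjusted p = 0.528 and 0.957) and r = 0.334 (rho = 0.070, adjusted p = 0.293 and 0.864).

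The relations among the 8 genes remained with the difference between genotypes removed. With each genotype centred on its own mean the median r was 0.656, and within the 7 Chd8L+/- libraries alone it was 0.689, with r of 0.8 or more in 7 of 28 pairs where 3.51% of all pairs of genes had it. Insig1 was the exception there, since its r with Sqle was -0.216 and with Srebf2 0.043 among those 7 libraries. The 5 WT libraries are too few for a correlation of their own. Each pair was also taken without the 2 libraries farthest from the median of its first-named gene, so the libraries left out can differ between pairs. The median r was then 0.564 and r was above 0 in 27 of 28 pairs, with Sqle and Lss at -0.099. Without WT replicate 2 alone the median was 0.579. Hmgcs1 and Fdft1 kept r = 0.943 without the 2 libraries of that pair. The relation of Lss and Dhcr7 fell from 0.668 (rho = 0.650, permutation test, adjusted p = 0.0393 and 0.0568) to 0.412 without the 2 of its own, so it rested in part on those.

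Each gene was also set against the mean of the other 7. Fdft1 and Hmgcs1 followed them most closely (r = 0.939 and 0.936), then Sqle (0.877), Srebf2 (0.779), Idi1 (0.724), Insig1 (0.653) and Dhcr7 (0.643), and Lss least (0.53). The enzymes Hmgcs1, Fdft1 and Sqle thus tracked the group more closely than the later enzymes Lss and Dhcr7 did, a difference that was not tested.

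The genes outside the 8 whose levels were most like theirs were largely other enzymes of the same pathway. Of 12797 genes, the 10 with the highest r to the mean of the 8 over the 12 libraries were Mvd (r = 0.959, rho = 0.944), H3f3b (0.887, 0.888), Nsdhl (0.884, 0.881), Hsd17b7 (0.881, 0.741), Cyp51 (0.877, 0.902), Fdps (0.872, 0.923), Msmo1 (0.863, 0.895), Pmvk (0.833, 0.881), Nudt18 (0.808, 0.895) and Lrrc26 (0.789, 0.860). Of these 10, 7 are cholesterol synthesis enzymes, among them mevalonate diphosphate decarboxylase (Mvd), farnesyl diphosphate synthase (Fdps) and lanosterol demethylase (Cyp51). H3f3b, Nudt18 and Lrrc26 are on none of the pathway lists. H3f3b, a replication-independent histone gene, spanned a narrow range of 7311 to 8739 and has near-identical copies among which its reads may be split. For the mean of the 8, the 2 libraries farthest from its median were WT replicate 1 and Chd8L+/- replicate 7. Without them the r of these 10 lay between 0.741 (Lrrc26) and 0.929 (Mvd). Only 9 of the 12797 genes, or 0.0703%, reached r of 0.8, and 7 of them are on a pathway list.

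Mvd, the closest, had 175, 303, 475, 705 and 441 in WT replicates 1 to 5 and from 280 (replicate 7) through a median of 442 to 546 (replicate 5) in Chd8L+/- libraries. The library order of the 8 genes was visible in it, with WT replicate 1 lowest, Chd8L+/- replicate 7 next and WT replicate 4 highest.

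Among lists of related genes, the synthesis enzymes had the highest median likeness. The median r with the mean of the 8 was 0.808 over 14 other cholesterol synthesis enzymes, with 7 of 14 at 0.8 or more. It was 0.232 over 12 other SREBP2 targets, 0.106 over 12 genes of fatty acid synthesis and SREBP1 targets, 0.016 over 13 genes of SREBP activation and sterol sensing, -0.051 over 9 LXR targets and sterol exporters and -0.076 over 11 genes of the non-sterol isoprenoid branch, beside -0.022 over all genes. The sterol exporter Abca1 ran the other way (r = -0.492, rho = -0.545, and r = -0.607 without WT replicate 1 and Chd8L+/- replicate 7). Among the enzymes, Lbr was the only gene with a negative r (-0.249), and Sc5d (0.370) and Acat2 (0.408) were weak. The lists differ in size and expression, and no test was made between them.

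**Figure D3:**
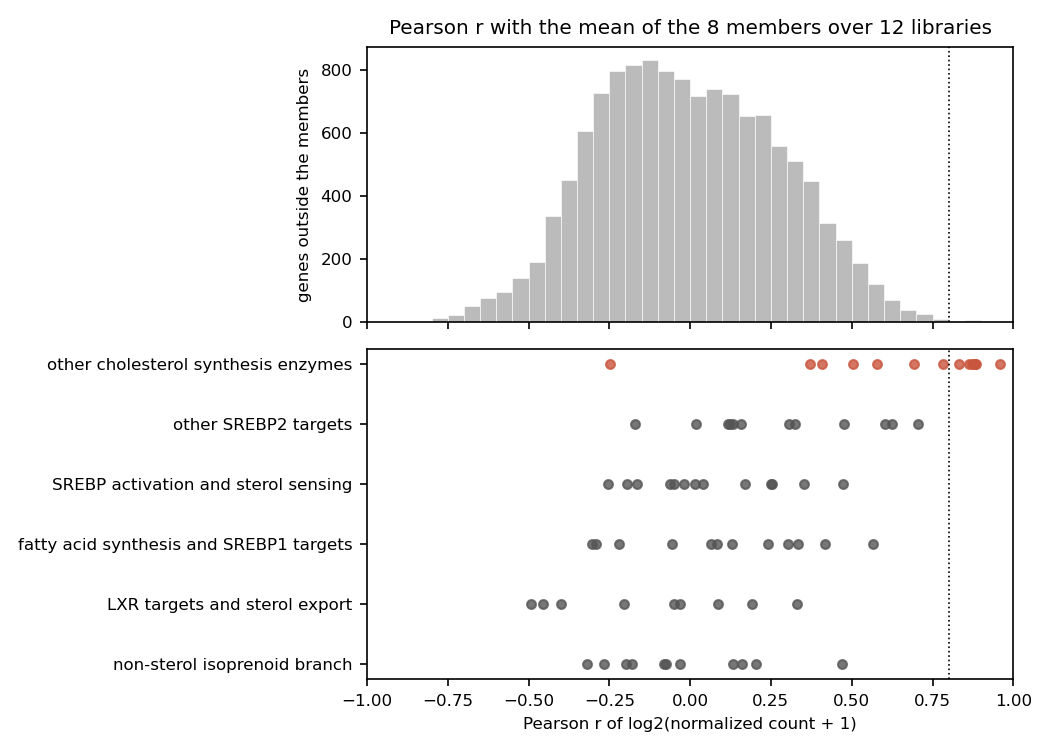
Pearson r of log2(normalised count + 1) with the mean of the 8 genes over 12 libraries, as a histogram of 12797 other genes (top) and for each gene of 6 related lists (bottom), with a dotted line at 0.8. Of the 14 other synthesis enzymes (red), 7 lie right of the line, where 9 of all 12797 genes lie.

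Between genotypes, the other enzymes of the pathway were also largely without a called difference. With limma and adjustment over all genes, 0 of the 14 other cholesterol synthesis enzymes passed, 5 had a log2 fold change above 0 and 9 below, and their median was -0.21. Only Lbr passed at an unadjusted p of 0.05. Cyp51 (log2 fold change -0.39, adjusted p = 0.521), Fdps (-0.38, 0.382), Msmo1 (-0.33, 0.532) and Mvk (-0.33, 0.393) lay lower in limma without passing. Without WT replicate 2 these were -0.62, -0.51, -0.56 and -0.47 and still did not pass. The list held values on both sides of 0, from -0.55 for Tm7sf2 to 0.93 for Lbr.

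Lbr, the lamin B receptor, carries a sterol reductase activity that Tm7sf2 shares. It had 769, 1270, 428.5, 441 and 490 in WT replicates 1 to 5 and from 982 (replicate 2) through a median of 1160 to 1540 (replicate 6) in the libraries labelled Chd8L+/-. WT replicate 2 lay among the Chd8L+/- libraries and the other 4 WT libraries lay below all 7. The log2 fold change was 0.93 (SE 0.24), and the adjusted p of limma was 0.121 with all libraries and 0.00255 without WT replicate 2, when the log2 fold change was 1.19. Over the other settings its adjusted p reached 0.344, and DESeq2, which called 6.29% of all genes, gave 0.0390. A limma fit with the opening letter of the library names as a block called 3.52% of all genes and gave Lbr an adjusted p of 0.0494. Tm7sf2 went the other way, with 392, 229, 865, 1014 and 1053 in WT replicates 1 to 5 and 293 to 695 (median 443) in Chd8L+/- libraries. Its log2 fold change was -0.55 (limma adjusted p = 0.360), and -0.90 without WT replicate 2 (adjusted p = 0.0382). Sc5d, a sterol desaturase, had 2803, 1378, 3796, 3901 and 3980 in WT and 1759 to 2470 (median 2182) in Chd8L+/- libraries, with a log2 fold change of -0.48 (limma adjusted p = 0.218), and of -0.76 without WT replicate 2 (adjusted p = 0.00415).

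Without WT replicate 2, limma thus called 3 of the 14 other enzymes, Lbr higher and Tm7sf2 and Sc5d lower in the libraries labelled Chd8L+/-, where it called 27.6% of all genes (14% of the 12807 tested were higher and 13.6% lower). It called 0 of the 8 genes in that setting, which favours calls, although their median log2 fold change moved to -0.18. The log2 fold changes were then -0.071 for Srebf2, -0.11 for Idi1, 0.43 for Lss and 0.13 for Dhcr7. The largest move was that of Insig1, and the lowest adjusted p was 0.0762, for Lss. WT replicate 1 was the lowest library for the mean of the 8 genes, so leaving it out lowers their log2 fold changes by construction. Leaving it out instead moved the median of the 8 further, to -0.28, and again 0 were called. The log2 fold changes were then -0.055 for Srebf2, -0.33 for Insig1, -0.29 for Hmgcs1, -0.28 for Idi1 and -0.31 for Fdft1. They were -0.32 for Sqle, 0.25 for Lss (limma adjusted p = 0.324) and 0.077 for Dhcr7.

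**Figure D4:**
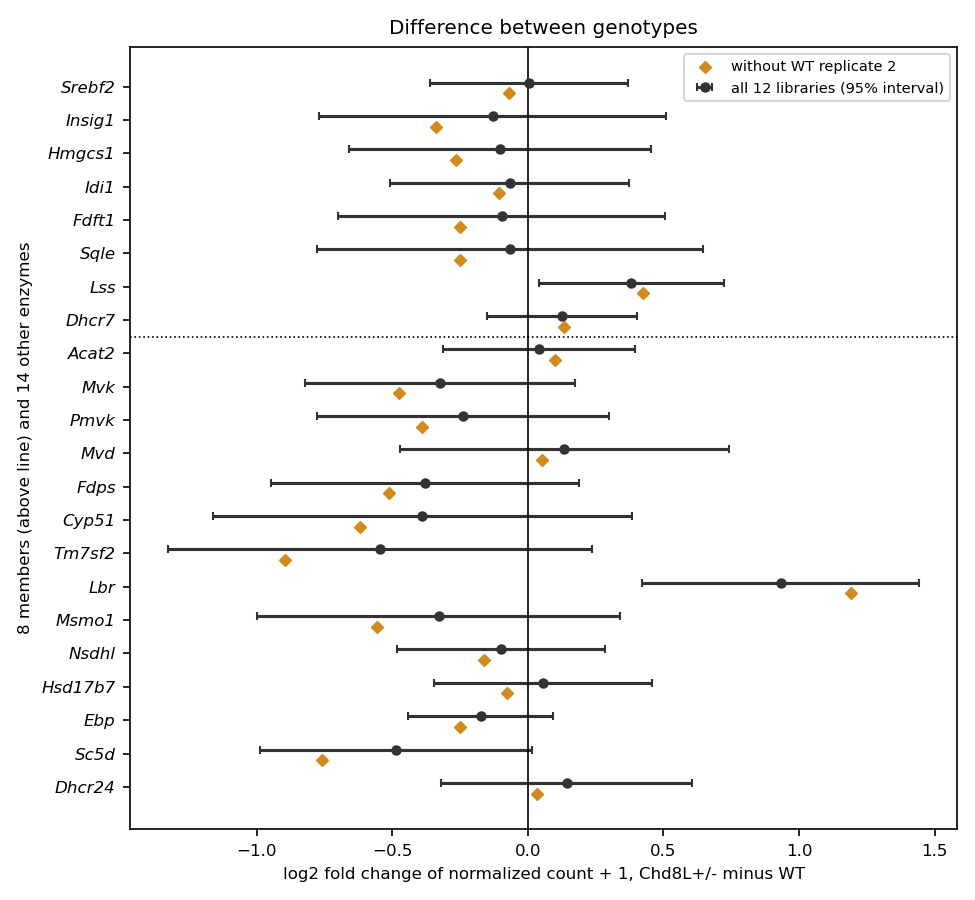
Log2 fold change (x axis, Chd8L+/- minus WT) of the 8 genes above the dotted line and of 14 other enzymes below it, as black points with 95% intervals from limma over all 12 libraries and as orange diamonds without WT replicate 2. The intervals of 7 of the 8 genes include 0, the exception being Lss (0.04 to 0.72), and Lbr lies farthest to the right at 0.93.

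Around the pathway, limma without a block called no gene of the other lists with all 12 libraries. At an unadjusted p of 0.05, 1 of 13 genes of SREBP activation, 3 of 12 other SREBP2 targets, 5 of 12 fatty acid genes, 2 of 11 of the isoprenoid branch and 0 of 9 LXR targets passed, beside the 24.3% of all genes. Without WT replicate 2, beside the 27.6% of all genes, limma called 1, 2, 7, 2 and 0 genes of these lists in the same order. Mbtps1, the protease that makes the initial cut in SREBPs, had means of 1014 ± 140 (SD, n = 5) and 1323 ± 147 (SD, n = 7), with a log2 fold change of 0.39 (limma adjusted p = 0.121, and 0.00767 without WT replicate 2, with 0.0340 in DESeq2). Slc25a1, the mitochondrial citrate carrier, had 3108 ± 743 (SD, n = 5) and 2319 ± 276 (SD, n = 7), with a log2 fold change of -0.39 (limma adjusted p = 0.159, and 0.00785 without WT replicate 2). Fnta, of the isoprenoid branch, had a log2 fold change of -0.31 (limma adjusted p = 0.125, and 0.0229 without WT replicate 2, with 0.0429 in DESeq2).

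Some fatty acid genes had larger log2 fold changes than any of the 8. Me1, the malic enzyme that supplies NADPH to lipid synthesis, had 3341, 680, 7112, 6236 and 4743 in WT replicates 1 to 5 and 260 to 2653 (median 1229) in Chd8L+/- libraries, with a log2 fold change of -1.86 (SE 0.64, limma adjusted p = 0.128) and of -2.44 (adjusted p = 0.00772) without WT replicate 2. With the letter block the log2 fold change of Me1 was -2.42 and it was called (limma adjusted p = 0.0434). Fads2, a fatty acid desaturase, had a log2 fold change of 0.95 (adjusted p = 0.124) and of 1.26 without it (limma adjusted p = 0.00386). Over the 12 genes of this list, 9 had a log2 fold change above 0 and 3 below, with a median of 0.24, or of 0.40 without WT replicate 2, and of the 7 genes called without that library 5 were higher and 2 lower. The direction of the list was not tested.

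Cell-type markers were set beside the 8 genes, whether or not they moved with the groups. No marker was called in limma, but the median log2 fold change of the list was -0.42 for enterocytes (11 of 12 lower), 0.45 for crypt stem cells (8 of 9 higher), 0.96 for proliferation (12 of 12 higher) and -1.87 for tuft cells (12 of 12 lower). It was -0.55 for the villus tip (5 of 6 lower), -0.65 for Paneth cells (5 of 6 lower), 0.97 for myeloid cells (9 of 9 higher) and 2.03 for stromal and endothelial cells (7 of 7 higher), the last from the low sums given above. For goblet cells it was -0.18 (7 of 8 lower), for the distal small intestine -0.31 (7 of 8 lower) and for lymphocytes -0.22 (11 of 13 lower). For the proximal small intestine it was -0.12 (6 of 9 lower), for the colon 0.24 (5 of 7 higher) and for enteroendocrine cells -0.042 (5 of 10 lower). Of the 112 relations between the 8 genes and the mean of each of 14 marker lists over the 12 libraries, 0 passed an adjusted p of 0.05 in a two-sided permutation test and 8 passed unadjusted. The closest by r over the 12 libraries was that of Fdft1 with the goblet cell markers (r = 0.784, rho = 0.741, permutation p = 0.00195, adjusted p = 0.218). Its r was 0.733 without the 2 libraries farthest from the median of that list. Hmgcs1 and Sqle followed with the same list (r = 0.723, rho = 0.720 and r = 0.715, rho = 0.748, permutation test, adjusted p = 0.294 for both). Insig1 with the tuft cell markers came next (r = 0.711, rho = 0.650, permutation test, adjusted p = 0.325). That r was 0.549 without the 2 libraries farthest from the median of the tuft list and 0.904 within the 7 Chd8L+/- libraries. The 2 libraries farthest from the median were set for each marker list by its own mean. Without them, r was highest with the distal small intestine markers, at 0.880 for Srebf2, 0.833 for Hmgcs1 and 0.80 for Sqle. Over all 12 libraries it was 0.416, 0.381 and 0.488 (rho = 0.671, 0.685 and 0.713, permutation test, adjusted p of r = 0.622, 0.649 and 0.570). The lowest r over the 12 libraries was that of Sqle with the proximal small intestine markers (r = -0.650, rho = -0.720, permutation test, adjusted p of r = 0.444). With the proliferation markers r was -0.568 for Insig1 and -0.558 for Hmgcs1 (permutation test, adjusted p = 0.570 for both). Among the 8 genes it was above 0 with that list only for Lss (0.329) and Dhcr7 (0.322). The part of cell makeup or gut segment in the differences among mice was not tested.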

How the data were processed

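The authors extracted RNA from gut epithelial cells of 5 WT and 7 Chd8L+/- mice, sequenced poly(A) libraries as single-end reads, mapped them to mm10 with Tophat2 and used the DESeq2 pipeline. The deposited signal per gene and library is the read count divided by the size factor of the library, for 14244 rows, of which 21 names had become dates and 2 were repeats. Which program counted the reads, on which annotation and with what use of strand is not given in the sources used here, so antisense reads cannot be told apart. Whole reads were recovered for 100% of values (largest deviation 0.000147), with totals of 15691662 to 20761315 per library (median 20207808 in WT and 17870124 in Chd8L+/-).

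Genotypes were compared with limma 3.58.1 in R 4.3.3 (lmFit, eBayes with trend) on log2(normalised count + 1), restricted to genes whose mean was 10 or more, with Benjamini-Hochberg adjustment over 12808 genes and a threshold of 0.05. A fold change on this scale is slightly understated for low genes. The 2 settings on recovered reads used edgeR 4.0.16 and DESeq2 1.42.0. Further settings were a pseudocount of 0.5 or 5, other filters, quantile normalization, the replicate number or the number or letter of the library name as a block, and each library left out. Correlations used log2 values, with two-sided permutation tests of 100000 resamples. Fits were tested on simulated data. Positions and exon lengths come from GENCODE M21 (GRCm38), which may not be the annotation the authors used.

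The 41 genes counted as named are the 8 genes, Chd8, every other cholesterol synthesis enzyme and the 10 genes most like the 8. They also hold the 3 genes of each further pathway list with the largest fold change. Not all of the 41 are described above. A few genes of these lists and of the ranking by likeness are not reported here and were left out of the counts over lists and of the ranking. Promoter stretches without a match to TCACNCCAC were chosen after the matches were seen. The genes and lists were chosen with earlier results of these data known. Deviations of libraries with the same replicate number correlated at -0.344 to 0.189, so the numbers were not treated as pairs.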

Additional observations from a re-analysis of the deposited data

Results flagged for a closer look

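In 82 groups of 5 or 7 libraries, 1 library lay far from the others in 4, where chance alone gives about 1 in 20, or 4.1. Among the 8 genes this was Lss in Chd8L+/- replicate 7, at a normalised count of 308 where the other 6 of that genotype had 406 to 481. That library was above the 12-library median for 1 of the 8 genes. The others were Tmem97, a sterol-responsive gene, in Chd8L+/- replicate 6 (1276, others 576 to 743), Nudt18, a gene most like the 8, in Chd8L+/- replicate 6 (101, others 54.2 to 68.2) and Mylip, an LXR target, in WT replicate 2 (69.0, others 186 to 277).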

How the results depend on the processing

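None of the 8 genes was called under any of the 22 other settings. The count of all genes called, 3 in the main comparison, was 5 with edgeR, 805 with DESeq2, 451 with the letter of the library name as a block, 0 with its number as a block and 0 with the replicate block, and 0 to 3534 when 1 library was left out, 3534 being without WT replicate 2 and at most 8 without any other. Of the other cholesterol synthesis enzymes, 1 (Lbr) was called with DESeq2 and 1 (Lbr) with the letter block, and 0 to 3 when 1 library was left out. Of 41 named genes, 13 changed sign in some setting, none of them called in that setting. With quantile normalization the log2 fold change was 0.013 for Insig1, 0.13 for Hmgcs1, 0.055 for Idi1, 0.014 for Fdft1 and 0.059 for Sqle. With DESeq2 it was -0.0056 for Srebf2. With the letter block it was 0.061 for Fdft1 and 0.16 for Sqle. With the replicate block it was 0.082 for Sqle, -0.0058 for Acat2 and 0.11 for Mylip, and with the number block 0.057, -0.12 and 0.12 for the same genes. With 1 library left out it ranged from -0.071 to 0.14 for Srebf2, -0.34 to 0.039 for Insig1, -0.29 to 0.077 for Hmgcs1, -0.28 to 0.094 for Idi1, -0.31 to 0.087 for Fdft1, -0.32 to 0.15 for Sqle, -0.063 to 0.10 for Acat2, -0.14 to 0.36 for Mvd, -0.26 to 0.0080 for Nsdhl, -0.078 to 0.15 for Hsd17b7, -0.025 to 0.027 for H3f3b and -0.023 to 1.49 for Abca1. The cause was not tested. With 5 and 7 mice and the spread among them, the intervals of the 8 genes were wide, and the replicate numbers did not pair the mice.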
